A study of Mus musculus with 21 samples.

Results

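The 62 mouse genes named Zfp900 to Zfp999, a run of numbered zinc finger genes most of which encode KRAB-type repressors, were followed through 4 cell states and 3 doses of lactate. They were chosen by a rule on the name, with earlier results of these data known. The rule takes every gene name made of Zfp and a number of 3 digits starting with 9 in both deposited expression tables. There are 21161 gene names in the cell-state table and 55291 in that for lactate. A further 2 names of the series, Zfp935 and Zfp957, stand in the lactate table only, reached at most 0.291 FPKM and were left out. FPKM is the number of fragments of RNA scaled for transcript length and library size, so levels can be compared between genes of a library. It does not correct for differences in RNA composition, which limits comparisons between libraries of different groups.

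RNA was sequenced from mouse cells that the labels name OG2, a name in common use for mice with a green fluorescent reporter driven by Pou5f1 sequences. The cell states are 2-cell-like cells (2CLCs, which carry transcripts of the 2-cell embryo), epiblast stem cells (EpiSCs, a primed form of pluripotency), mouse embryonic fibroblasts (MEFs) and embryonic stem cells (ESCs), all labelled wild type. The lactate groups are ESCs labelled wild type with 0 mM and ESCs given 60 mM or 80 mM sodium lactate. Each of the 7 groups has 3 libraries, 21 in all. How the 2CLCs were obtained and for how long lactate was given are not given in the sources used here. No label says whether the libraries of a group are separate cultures, and the p-values therefore rest on a spread between libraries that may be technical.

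KRAB zinc finger proteins bind DNA through arrays of C2H2 fingers and hold the co-repressor Trim28 through their KRAB box, and Trim28 in turn brings the histone methyltransferase Setdb1, heterochromatin proteins and deacetylases to the bound site. In mouse pluripotent cells many of them silence transposable elements, and deletion of whole clusters of these genes in mouse ESCs releases such elements. The genes lie in clusters that grew by duplication, so that neighbours are often near-identical copies.

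The 62 genes lie on 11 chromosomes, and 43 of them fall into 5 clusters in which each gene starts less than 1000000 bases from the next (GENCODE M21 on GRCm38). The largest holds 16 genes in 2.34 Mb of distal chromosome 4 (chr4:145510759-147848366). Clusters of 10 genes each lie on chromosome 2 (chr2:175372436-178078476) and chromosome 17 (chr17:21567008-22867134), with 4 genes on chromosome 7 (chr7:42579783-43192109) and 3 on chromosome 8 (chr8:69209038-69749970), and 19 genes stand outside clusters. All but Zfp939, a transcribed pseudogene, are annotated as protein coding. Of the 61 with a coding sequence, 53 hold a match to the conserved residues of the KRAB A box, among them 16 of 16 on chromosome 4, while Zfp972, Zfp956, Zfp974, Zfp964, Zfp963, Zfp948, Zfp943 and Zfp952 hold none. The number of C2H2 fingers ran from 0 in Zfp972 to 21 in Zfp974, with a median of 11, and on chromosome 4 from 2 in Zfp993 to 15.

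Copies within a cluster share sequence, which bears on how FPKM was divided among them. A median of 22.25% of the 50-base words of a member's transcripts also stand in another gene, but the median was 89.15% for the chromosome 2 cluster (42.4 to 100%) and 65.0% for the chromosome 4 cluster (1.86 to 93.1%). It was 22.15% on chromosome 7, 9.41% on chromosome 17, 3.99% on chromosome 8 and 2.92% for genes outside clusters. Levels of single chromosome 2 genes, and of chromosome 4 genes such as Zfp987 (93.1%), Zfp991 (87%), Zfp986 (86.9%) and Zfp993 (86.8%), are therefore uncertain. Zfp993 shares 82% of its words with Zfp991, and Zfp991 shares 62.4% with Zfp992. On the same chromosome Zfp982 (11.5%), Zfp985 (15.7%), Zfp979 (24.6%) and Zfp990 (28.2%) share little, and Zfp933, the last gene of the cluster, shares 1.86%. In addition 15 members overlap another annotated gene on the same strand and 16 on the other strand, and no source used here says whether reads were counted by strand.

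The promoter sequences below are shown because 8 of the 10 chromosome 4 genes with a window at hand have an alike one. Zfp933 is shown beside them as a window that is not alike, and was picked after its levels were seen. The window of Zfp993 is not alike either, and that gene was called lower in EpiSCs, MEFs and lactate with most of the cluster. That window, at chr4:146512599-146512898, lies well before the GENCODE start of Zfp993 at 146610961 and within the span of Zfp981. It may not be the promoter behind the levels of Zfp993. Any part of the windows in the levels was not tested. Each sequence is a window from 250 bases before to 50 bases after a RefSeq start on GRCm38.p6, written 5′ to 3′ on the gene's strand. Capitals in the first 4 mark a run of 15 bases, the longest found in all 8 alike windows of the cluster. The windows are Zfp985 at chr4:147553027-147553326 (plus strand), Zfp988 at chr4:147305354-147305653 (plus strand), Zfp979 at chr4:147642459-147642758 (minus strand), Zfp984 at chr4:147809739-147810038 (minus strand) and Zfp933 at chr4:147848369-147848668 (minus strand).
Zfp985: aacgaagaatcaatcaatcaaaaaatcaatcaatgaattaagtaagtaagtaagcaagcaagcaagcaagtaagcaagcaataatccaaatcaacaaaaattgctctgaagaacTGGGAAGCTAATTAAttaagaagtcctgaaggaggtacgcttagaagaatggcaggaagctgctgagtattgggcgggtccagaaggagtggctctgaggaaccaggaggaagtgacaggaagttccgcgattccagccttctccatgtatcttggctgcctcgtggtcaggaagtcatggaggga
Zfp988: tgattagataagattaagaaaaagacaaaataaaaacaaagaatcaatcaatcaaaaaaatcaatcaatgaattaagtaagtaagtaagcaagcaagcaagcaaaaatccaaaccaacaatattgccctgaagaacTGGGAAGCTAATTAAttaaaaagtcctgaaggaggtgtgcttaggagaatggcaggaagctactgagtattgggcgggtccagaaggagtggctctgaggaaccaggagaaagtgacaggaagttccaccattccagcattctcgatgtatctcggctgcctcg
Zfp979: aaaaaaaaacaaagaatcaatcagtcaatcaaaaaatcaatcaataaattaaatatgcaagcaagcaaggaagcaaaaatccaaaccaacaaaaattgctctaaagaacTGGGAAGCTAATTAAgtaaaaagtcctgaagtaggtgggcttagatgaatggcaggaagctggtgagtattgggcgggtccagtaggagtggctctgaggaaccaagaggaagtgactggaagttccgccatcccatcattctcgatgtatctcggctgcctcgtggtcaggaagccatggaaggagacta
Zfp984: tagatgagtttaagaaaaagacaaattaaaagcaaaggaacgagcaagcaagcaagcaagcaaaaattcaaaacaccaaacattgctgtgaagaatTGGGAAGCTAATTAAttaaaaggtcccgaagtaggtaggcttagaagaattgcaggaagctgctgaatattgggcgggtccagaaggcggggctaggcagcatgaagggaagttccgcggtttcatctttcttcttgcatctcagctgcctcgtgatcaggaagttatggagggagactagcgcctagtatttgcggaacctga
Zfp933: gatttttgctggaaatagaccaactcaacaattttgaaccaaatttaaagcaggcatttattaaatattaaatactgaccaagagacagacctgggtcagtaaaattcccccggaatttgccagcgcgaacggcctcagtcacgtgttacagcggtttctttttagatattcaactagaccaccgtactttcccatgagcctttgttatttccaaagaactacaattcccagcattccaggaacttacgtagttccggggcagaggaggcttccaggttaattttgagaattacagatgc

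RefSeq windows were at hand for 52 members, 60 windows in all, and for 10 members of the chromosome 4 cluster, 12 windows. Windows of Zfp980, Zfp987, Zfp981, Zfp988, Zfp985, Zfp979, Zfp984 and 1 of 3 windows of Zfp982 were alike, with 69.0 to 91.0% identity between pairs (median 81.8%). The windows of Zfp993 and Zfp933 and the other windows of Zfp982 had 44.7 to 55.0% identity to them. The alike windows held a median of 4.5 CpG and 43.8% GC, against 7.0 CpG and 52.7% GC over all 32851 windows of the table. The capital run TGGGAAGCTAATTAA was found on either strand in 12 of the 32851 windows (0.0365%), which were those 8 and windows of Gm13212, Rex2, Zfp534 and Zfp600, all on chromosome 4. The GC box GGGCGG, which overlaps no base of that run, stood in 7 of the 8 alike windows, Zfp987 being the exception, and in 35.7% of all windows. The chromosome 7 cluster has its own shared window, of which 2 are shown. The 4 windows there had 72.3 to 91.3% identity, and capitals mark a run of 21 bases common to them, in Zfp936 at chr7:43177340-43177639 (plus strand) and Zfp977 at chr7:42592496-42592795 (minus strand). On chromosome 2 the 9 windows had 68.3 to 100% identity, those of Zfp966 and Zfp967 being identical.
Zfp936: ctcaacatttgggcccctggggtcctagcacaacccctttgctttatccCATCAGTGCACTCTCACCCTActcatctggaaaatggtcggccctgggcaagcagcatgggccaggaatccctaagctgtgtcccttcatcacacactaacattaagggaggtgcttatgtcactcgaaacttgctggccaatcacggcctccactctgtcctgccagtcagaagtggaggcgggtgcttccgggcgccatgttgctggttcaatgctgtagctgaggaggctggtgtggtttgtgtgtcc
Zfp977: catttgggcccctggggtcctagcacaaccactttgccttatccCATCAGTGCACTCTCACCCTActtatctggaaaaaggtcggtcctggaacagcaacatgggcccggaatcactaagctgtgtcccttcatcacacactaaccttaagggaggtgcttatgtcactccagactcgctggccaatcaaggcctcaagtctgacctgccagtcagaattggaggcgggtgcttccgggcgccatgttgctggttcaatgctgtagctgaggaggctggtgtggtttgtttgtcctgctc

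**Figure D1:**
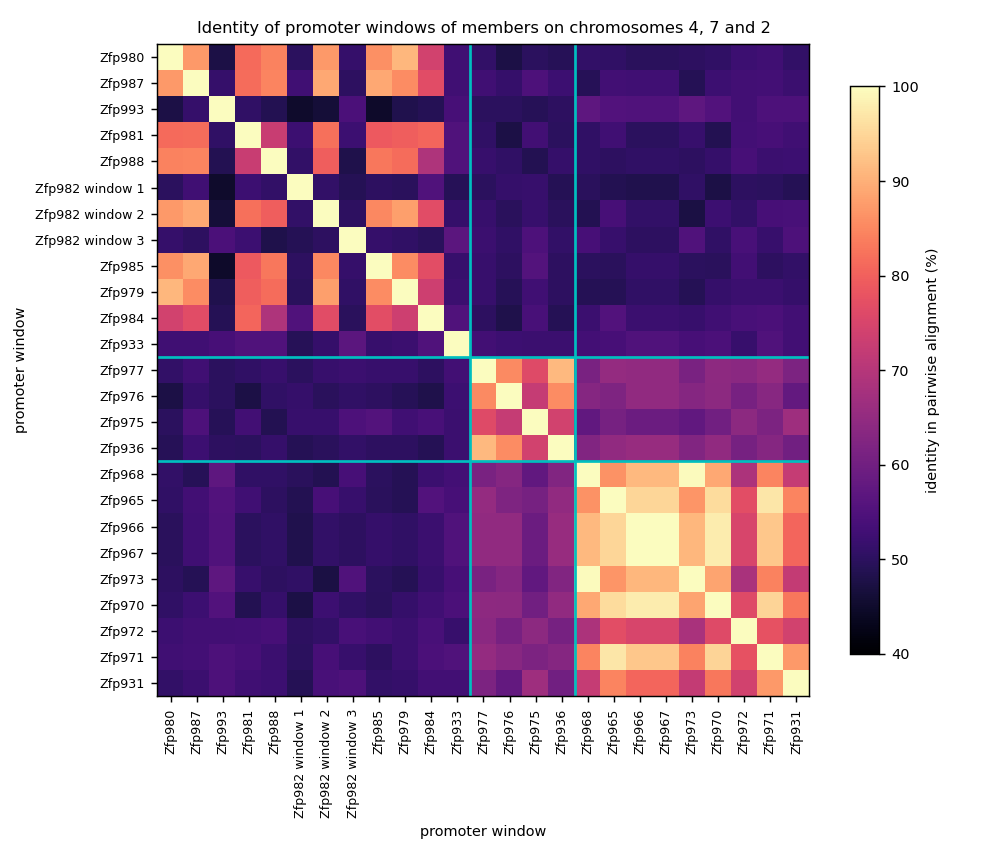
Percent identity in pairwise global alignment between the 300-base promoter windows of members on chromosomes 4, 7 and 2, from dark (40%) to light (100%), with lines between chromosomes. Within chromosome 4, 8 windows form a bright block of 69.0 to 91.0% identity, and Zfp993, Zfp933 and both other Zfp982 windows stand outside it.

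Library sums lay between 375926 and 519915 FPKM for the cell states, with the 2CLC libraries highest, and between 396792 and 409131 FPKM for lactate, and the number of reads behind each value is unknown. The median gene stood 0.46 lower in 2CLCs than in ESCs on the log2(FPKM + 1) scale, which median-of-ratios scaling removes. Counts of members called in 2CLCs, and some single members, are therefore also given under that scaling. Apart from counts over all genes, 2CLC calls of genes that are not members are given as deposited only. EpiSC replicate 1 stood apart from its group, with correlations over genes of 0.9733 and 0.9726 to the other EpiSC libraries, which had 0.9955 between them. Marker genes followed the labels: Zscan4c averaged 5910 FPKM in 2CLCs and 2.34 in ESCs, Fgf5 averaged 36.2 in EpiSCs and 0.0449 in ESCs, and Col1a1 averaged 310 in MEFs and 0.209 in ESCs. All of the 10 2CLC markers were called higher in 2CLCs, 7 of 8 primed markers higher in EpiSCs, 8 of 8 fibroblast markers higher in MEFs, and 8 of 8 naive markers lower in both of these. Trophectoderm and endoderm markers had summed levels of at most 18.92 FPKM and 38 FPKM in any library, the second of these in MEFs.

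Together the 62 genes gave 605.7 to 694.5 FPKM per library in 2CLCs, 199.7 to 229.5 in EpiSCs, 108.2 to 110.6 in MEFs and 665.9 to 688.5 in ESCs. Sums of the 2CLC and ESC libraries overlapped, and those of the EpiSCs and MEFs lay below both. As a share of each library's summed FPKM, the genes made up 0.117 to 0.134% in 2CLCs and 0.16 to 0.166% in ESCs, which lie apart. In a sum over a library of many cells, fewer cells that transcribe a gene and less RNA per cell cannot be told apart. The highest mean was found in ESCs for 22 genes, in 2CLCs for 21, in EpiSCs for 14 and in MEFs for 5. The state with the highest mean was 2CLCs for 10 of 16 genes on chromosome 4, ESCs for 8 of 10 on chromosome 2 and 2 of 3 on chromosome 8, and 2CLCs or ESCs for 2 each on chromosome 7. The 5 highest members were Zfp978, Zfp979, Zfp988, Zfp990 and Zfp987 in 2CLCs, a list that chromosome 4 fills, and Zfp961, Zfp946, Zfp930, Zfp979 and Zfp948 or Zfp984, close to each other, in EpiSCs. In MEFs no member averaged 10 FPKM, and the highest was Zfp948 at 6.33 FPKM.

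**Figure D2:**
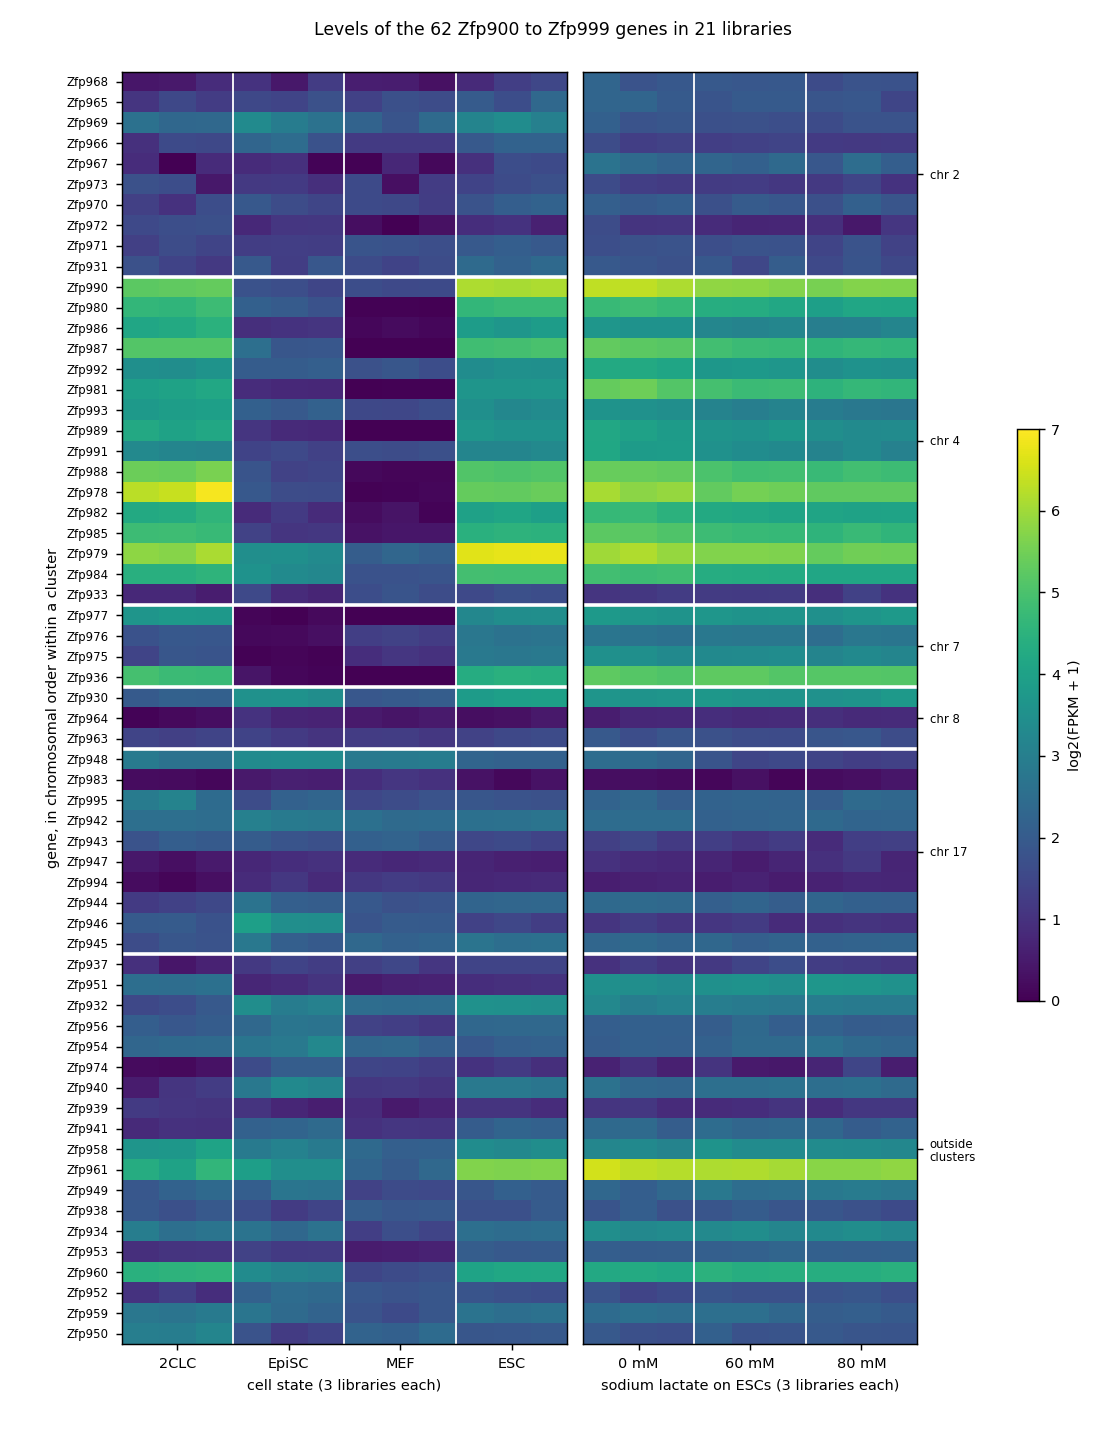
Levels of all 62 members as log2(FPKM + 1), colour from 0 (dark) to 7 (bright), with 1 row per gene grouped by cluster and 1 column per library grouped by cell state (left) or lactate dose (right). The chromosome 4 rows are bright in 2CLCs and ESCs, and most are dark in EpiSCs and MEFs, as are the chromosome 7 rows.

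Differences between groups were tested with limma on log2(FPKM + 1), a scale that understates the change of genes near 0, with Benjamini-Hochberg adjustment over all genes tested and a threshold of 0.05. For the cell states 58 members had at least 1 FPKM in at least 3 libraries and were tested. The other 4, Zfp967, Zfp964, Zfp983 and Zfp947, were too low. EpiSCs, MEFs and 2CLCs were each set against the same 3 ESC libraries, so the 3 comparisons are not independent.

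The chromosome 4 genes were low in EpiSCs. Of 58 members tested, 8 were called higher and 31 lower in EpiSCs than in ESCs, against 33.2% and 26.5% of all genes tested, and the members' median log2 fold change was -0.41 where that of all genes was 0.01. On chromosome 4 all of the 16 genes fell, with a median of -2.80, and their summed level was 41.85 to 52.26 FPKM in EpiSC libraries and 426.9 to 440.2 FPKM in ESC libraries. Outside that cluster 8 of 42 members rose and 15 fell. The 8 naive markers summed to 27.86 to 37.27 FPKM in EpiSCs and 1570 to 1581 FPKM in ESCs, and the 8 fibroblast markers to 11.66 to 12.21 FPKM in EpiSCs and 1.208 to 1.689 FPKM in ESCs, and their part in the result was not tested. Zfp990 stood at 2.37, 2.21 and 1.75 FPKM in EpiSCs and at 69.2, 67.4 and 70.1 FPKM in ESCs, a log2 fold change of -4.50 ± 0.08 (SE, adjusted p = 7.08e-12). The ESC libraries agree closely here and lie far above the EpiSC ones. Zfp979 had 10.1, 10.3 and 9.1 FPKM in EpiSCs and 101, 106 and 108 FPKM in ESCs (-3.29 ± 0.10, adjusted p = 4.08e-10). Zfp978 had 2.79, 2.1 and 2.03 FPKM in EpiSCs and 39.9, 39.2 and 41 FPKM in ESCs (-3.64 ± 0.14, adjusted p = 2.2e-09). Zfp988 and Zfp985 fell alike, by 3.52 and 3.29 on the log2 scale. Zfp982, which in mouse ESCs is described as a regulator of stemness genes, had 0.802, 1.3 and 0.823 FPKM in EpiSCs and 15, 16.2 and 14.6 FPKM in ESCs (-3.05 ± 0.13, adjusted p = 4.26e-09). For all of the 16 genes no EpiSC library reached an ESC library, where 28.5% of all genes tested lay apart in that direction. Of the 5 genes that share little sequence with others, Zfp982, Zfp985, Zfp979 and Zfp990 fell by more than the cluster median and Zfp933 by less. Without EpiSC replicate 1 the counts were 11 higher and 35 lower, and 16 of 16 on chromosome 4.

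The falls on chromosome 4 varied in size. Zfp984 was among the genes that fell least, with 10.9, 9.1 and 8.38 FPKM in EpiSCs and 28.8, 28.2 and 28.6 FPKM in ESCs (-1.50 ± 0.09, adjusted p = 5.29e-08). The log2 fold changes of Zfp993, Zfp992 and Zfp991 were -1.28, -1.42 and -1.78, and those of the other cluster genes apart from Zfp933 lay between -2.70 and -4.50. Zfp991 shares much sequence with Zfp993 and Zfp992, so the falls of these genes may not be separate. Zfp933 had 1.92, 0.825 and 0.665 FPKM in EpiSCs and 1.93, 2.27 and 2.15 FPKM in ESCs (-0.59 ± 0.18, adjusted p = 0.013). Its level in EpiSC replicate 1 is near the ESC libraries, while both other EpiSC libraries are lower.

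In MEFs most of the cluster was lower still. MEFs had 6 members called higher and 43 lower than in ESCs, against 34.4% and 40.9% of all genes tested, with a median of -1.04 for members and -0.07 for all genes. Chromosome 4 accounts for 15 of the falls, with a cluster median of -3.73 that includes Zfp987 and Zfp989, listed at 0, and a summed level of 16.97 to 18.32 FPKM in MEF libraries. Both of these were listed at 0 in all 3 MEF libraries, where ESC libraries had 28.1, 28.9 and 30.7 FPKM of Zfp987 and 11.8, 10.9 and 10.8 FPKM of Zfp989. Zfp978 had 0.0279, 0.0508 and 0.0956 FPKM in MEFs and 39.9, 39.2 and 41 FPKM in ESCs (-5.28 ± 0.14, adjusted p = 2.54e-11). Among the most affected genes was also Zfp988, with 0.118, 0.0601 and 0.0617 FPKM in MEFs and 33.1, 32.1 and 33.1 FPKM in ESCs (-4.97 ± 0.11, adjusted p = 5.6e-12). Zfp980 had 0.0232, 0.024 and 0.0131 FPKM in MEFs and 23.8, 26 and 25.7 FPKM in ESCs (-4.68 ± 0.10). These genes were near 0 in every MEF library, with no overlap with ESCs. Summed over 8 markers, fibroblast genes reached 990.3 to 1007 FPKM in MEFs and 1.208 to 1.689 FPKM in ESCs, and naive markers 17.74 to 18.73 FPKM in MEFs and 1570 to 1581 FPKM in ESCs, and their part in the result was not tested.

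A second group within the cluster stayed measurable in MEFs. Zfp979 had 3.16, 3.98 and 3.35 FPKM, Zfp984 had 2.4, 2.37 and 2.5 FPKM, and Zfp990, Zfp992, Zfp993 and Zfp991 averaged between 1.95 and 2.38 FPKM, all called lower than in ESCs. The levels of Zfp991, Zfp992 and Zfp993 may not be separate, given their shared sequence. Zfp991 was a little higher in MEFs, at 2.23, 2.11 and 2.3 FPKM, than in EpiSCs, at 1.63, 1.92 and 1.55 FPKM, a pair that was not tested. Zfp933 had 2.15, 2.52 and 2.1 FPKM in MEFs and 1.93, 2.27 and 2.15 FPKM in ESCs, which overlap (0.06 ± 0.18, adjusted p = 0.787), whereas the other 15 lay below ESCs in every MEF library, as did 45.7% of all genes tested.

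**Figure D3:**
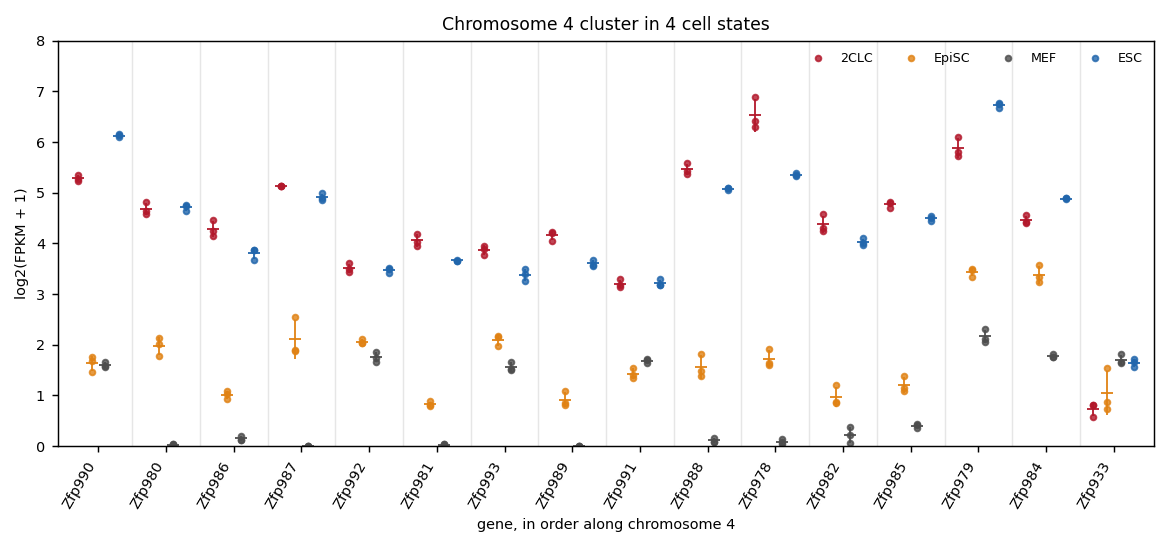
Levels of the 16 chromosome 4 cluster genes as log2(FPKM + 1), in order along the chromosome, with 1 point per library, a bar at the mean and error bars of 1 SD (n = 3) for 2CLCs, EpiSCs, MEFs and ESCs. All genes but Zfp933 stand higher in 2CLCs and ESCs than in EpiSCs and MEFs, and Zfp978 is above its ESC level in 2CLCs while Zfp979 and Zfp990 are below theirs.

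In 2CLCs the summed FPKM of the chromosome 4 cluster overlapped that of ESCs as deposited, while the shares of its genes differed. Of 58 members tested, 19 were called higher and 26 lower in 2CLCs than in ESCs, against 20.1% and 56.4% of all genes tested, with a median of -0.06 for members and -0.46 for all genes. Under median-of-ratios scaling 33 were called higher and 13 lower, and all of the 19 remained higher. Of all 16358 genes tested, that scaling called 6018 higher and 5301 lower, against 3296 and 9220 as deposited. On chromosome 4 the counts were 8 higher and 4 lower, or 13 higher and 1 lower under that scaling, and 5 higher with a pseudocount of 0.1. The summed level of the cluster was 415 to 493.1 FPKM in 2CLCs and 426.9 to 440.2 FPKM in ESCs, which overlap. As a share of each library's summed FPKM it was 0.08 to 0.095% in 2CLCs and 0.102 to 0.106% in ESCs, which do not. Of 8 naive markers 7 were called lower in 2CLCs, with sums of 906.8 to 1007 FPKM in 2CLCs and 1570 to 1581 FPKM in ESCs, and their part in the result was not tested. Zfp978 rose, to 77.1, 83.9 and 118 FPKM in 2CLCs, against 39.9, 39.2 and 41 FPKM in ESCs (1.17 ± 0.14, adjusted p = 1.24e-05). Zfp979 had 54.8, 51.9 and 67.6 FPKM in 2CLCs and 101, 106 and 108 FPKM in ESCs (-0.85 ± 0.10, adjusted p = 1.15e-05), and Zfp990 had 36.8, 37.8 and 39.8 FPKM in 2CLCs and 69.2, 67.4 and 70.1 FPKM in ESCs (-0.84 ± 0.08, adjusted p = 1.5e-06). Both fell as deposited, but under median-of-ratios scaling they were not called, at -0.09 and -0.08. No library of either group reached into the other for these 3 genes.

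Shares within a library do not depend on the scaling. Zfp978 made up 18.6 to 23.8% of the cluster's summed FPKM in 2CLC libraries and 9.14 to 9.34% in ESC libraries. Zfp979 made up 12.4 to 13.7% in 2CLC libraries and 23.7 to 24.6% in ESC libraries, and Zfp990 made up 8.07 to 9.03% and 15.7 to 16.2%. The groups lie apart for all 3 shares. Zfp978 shares 75.9% of its words with other genes, 54.5% with Zfp600, whose own level was 38.3 ± 2.17 FPKM in 2CLCs and 22 ± 1.5 FPKM in ESCs (SD, n = 3), so its level is uncertain.

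The other chromosome 4 genes called higher in 2CLCs moved less. Zfp989 had 17.8, 15.5 and 17.5 FPKM in 2CLCs and 11.8, 10.9 and 10.8 FPKM in ESCs (0.55 ± 0.09, adjusted p = 0.000152), and Zfp993, Zfp986, Zfp981, Zfp988, Zfp982 and Zfp985 had log2 fold changes of 0.49, 0.48, 0.39, 0.39, 0.35 and 0.28. Zfp980, Zfp987, Zfp992 and Zfp991 were not called. Zfp984 had 20.3, 20.2 and 22.5 FPKM in 2CLCs and 28.8, 28.2 and 28.6 FPKM in ESCs, and was called lower as deposited (-0.43) and higher under median-of-ratios scaling (0.31). Zfp933 fell under either scaling, with 0.743, 0.749 and 0.488 FPKM in 2CLCs and 1.93, 2.27 and 2.15 FPKM in ESCs (-0.91 ± 0.18, adjusted p = 0.00057).

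Genes with the shared promoter run can be read across the states. Of the 8 members that hold it, Zfp981, Zfp988, Zfp982 and Zfp985 were called higher in 2CLCs, Zfp979 and Zfp984 lower, and Zfp980 and Zfp987 neither. Of all genes tested 20.1% were called higher and 56.4% lower in 2CLCs. Under median-of-ratios scaling Zfp984, Zfp980 and Zfp987 were called higher and Zfp979 was not called. All of the 8 were called lower in EpiSCs, in MEFs and at either dose of lactate, where 26.5%, 40.9%, 18.6% and 23.1% of all genes tested were, in that order. The 4 other carriers, Gm13212, Rex2, Zfp534 and Zfp600, were called in the same directions in EpiSCs, MEFs and lactate, and all were called higher in 2CLCs (0.30 to 0.77). All 4 lie in the chromosome 4 interval, where 31 of 38 tested neighbours, these included, were called lower in EpiSCs and 33 in MEFs. In 2CLCs 28 of those 38 were called higher. In lactate 8 of 45 tested neighbours were called lower at 60 mM and 16 at 80 mM. Rex2 holds 57.8% of the words of Zfp980, Gm13212 49.8% of Zfp984, Zfp600 54.5% of Zfp978 and Zfp534 15.1% of Zfp990. The parts of run, place and shared sequence in these calls were not tested. Zfp993, whose window is not alike and lies away from its annotated start, was also called lower in EpiSCs, MEFs and lactate. Zfp933 was called lower in 2CLCs and EpiSCs.

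The chromosome 4 genes fell together with lactate. For lactate 57 members were tested, Zfp974, Zfp964, Zfp983, Zfp947 and Zfp994 being too low. At 60 mM 3 were called higher and 20 lower than at 0 mM, against 23.5% and 18.6% of all genes tested, and at 80 mM 4 were called higher and 22 lower, against 30% and 23.1%. The doses share their 0 mM libraries. Of the 16 chromosome 4 genes, 15 fell at 60 mM (median -0.45) and 15 at 80 mM (median -0.62), while all genes tested had a median of 0.03 at either dose. Every lactate library lay below every 0 mM library in 15 of the 16 at 60 mM and at 80 mM, where 23.9% and 26.4% of all genes tested did. The remaining 41 members gave 3 higher and 5 lower at 60 mM and 4 higher and 7 lower at 80 mM. The cluster's summed level was 467 to 519.9 FPKM at 0 mM, 351.8 to 370.2 FPKM at 60 mM and 306.1 to 328.8 FPKM at 80 mM, 3 ranges that do not overlap. Its means stood in the ratios 0.724 at 60 mM and 0.638 at 80 mM to that at 0 mM.

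The fall was even across the cluster. Zfp984 had 28.6, 27 and 27.7 FPKM at 0 mM, 19.3, 18.9 and 18.6 FPKM at 60 mM, and 16.8, 16.6 and 16.5 FPKM at 80 mM, with log2 fold changes against 0 mM of -0.53 ± 0.04 at 60 mM (adjusted p = 6.28e-06) and -0.70 ± 0.04 at 80 mM (adjusted p = 4.44e-07). Zfp990 had 80, 78.8 and 69.4 FPKM at 0 mM, 56.6, 54.6 and 51.4 FPKM at 60 mM, and 46.6, 50.9 and 49.7 FPKM at 80 mM (-0.48 and -0.62). The dose groups of each gene do not overlap. Zfp991 had the largest fall in the cluster at 80 mM, with 17, 13.4 and 13.5 FPKM at 0 mM, 10.7, 9.53 and 8.96 FPKM at 60 mM, and 7.69, 9.22 and 7.46 FPKM at 80 mM (-0.77 ± 0.10, adjusted p = 0.000161 at 80 mM). Its 60 and 80 mM libraries overlap. Zfp992 had 18.2, 18 and 16.3 FPKM at 0 mM, 12.1, 12.5 and 11.8 FPKM at 60 mM, and 9.72, 10.9 and 10.4 FPKM at 80 mM (-0.50 and -0.71). Apart from Zfp933, log2 fold changes lay between -0.54 and -0.34 at 60 mM and between -0.77 and -0.53 at 80 mM. The little-shared genes Zfp982 (-0.46 and -0.58) and Zfp985 (-0.45 and -0.55) lie within these ranges.

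Zfp981, Zfp993 and Zfp978 also belong to the larger falls. Zfp981 had 39.3, 42.9 and 34.2 FPKM at 0 mM, 29.4, 26.4 and 26.7 FPKM at 60 mM, and 22.1, 24.5 and 23.6 FPKM at 80 mM (-0.70 ± 0.08 at 80 mM, adjusted p = 3.98e-05). Zfp993 had 11.1, 10.6 and 10.1 FPKM at 0 mM, 7.79, 6.95 and 7.7 FPKM at 60 mM, and 6.62, 6.02 and 5.77 FPKM at 80 mM (-0.70 ± 0.07 at 80 mM, adjusted p = 1.73e-05). Zfp978 had 66.7, 54.2 and 58.6 FPKM at 0 mM, 39.1, 45.7 and 43.1 FPKM at 60 mM, and 37.8, 37.9 and 37.9 FPKM at 80 mM (-0.48 and -0.64). In each of them the 3 dose groups stand in the order of dose with no overlap. Zfp933 had 1.13, 1.18 and 1.37 FPKM at 0 mM, 1.33, 1.26 and 1.31 FPKM at 60 mM, and 0.939, 1.54 and 1.05 FPKM at 80 mM, which overlap, and was not called.

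Between the doses the step was smaller. At 80 mM against 60 mM limma called 0 members higher and 3 lower, against 4.06% and 2.11% of all genes tested. At an unadjusted p under 0.05 there were 0 higher and 15 lower. The share of all genes at that looser threshold was not counted, so the 15 cannot be set against the 2.11%. Zfp959 fell by 0.43 (adjusted p = 0.0179), Zfp961 by 0.34 (adjusted p = 0.0198) and Zfp984 by 0.18 (adjusted p = 0.0264) on the log2 scale. The 3 falls as deposited became 0 without 60 mM replicate 1, without 60 mM replicate 2 or without 80 mM replicate 1, 1 without 80 mM replicate 2 or 3, and 2 without 60 mM replicate 3. With all libraries, median-of-ratios scaling gave 6, and called 465 of all 13271 genes tested lower, against 280 as deposited. In 11 of the 16 chromosome 4 genes every 80 mM library lay below every 60 mM library, against 11.6% of all genes tested. Means of 15 of the 16 decreased at each step of dose, as did those of 12 of the 46 other members. This order of means was not counted over all genes.

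**Figure D4:**
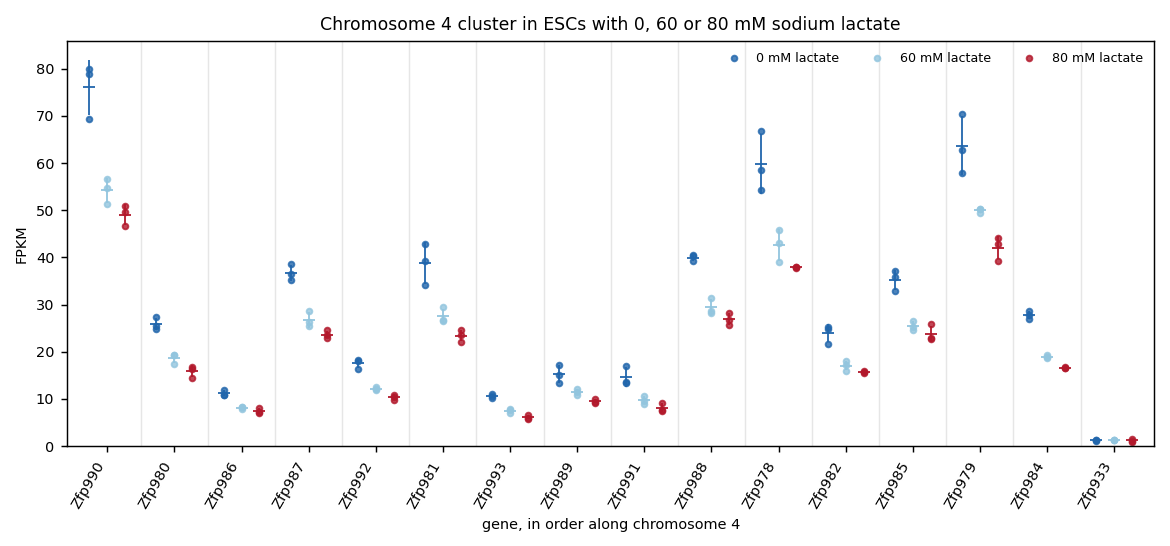
FPKM of the 16 chromosome 4 cluster genes in ESCs with 0, 60 or 80 mM sodium lactate, in order along the chromosome, with 1 point per library, a bar at the mean and error bars of 1 SD (n = 3). Every gene but Zfp933 is lower at 60 mM than at 0 mM and lower again on average at 80 mM.

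Markers of other states moved with lactate as well. The summed level of the 10 2CLC markers was 53.1 to 58.1 FPKM at 0 mM, 117.7 to 129.7 FPKM at 60 mM and 185 to 196.2 FPKM at 80 mM, and 9 of 9 tested were called higher at either dose. That of the 8 naive markers was 1763 to 1811 FPKM at 0 mM, 2011 to 2081 FPKM at 60 mM and 2096 to 2168 FPKM at 80 mM. Of these 8, 6 were called higher and 2 lower at either dose. The 8 fibroblast markers summed to 0.7051 to 1.01 FPKM at 0 mM, 3.177 to 3.899 FPKM at 60 mM and 4.491 to 4.779 FPKM at 80 mM. Only 1 of them was high enough to be tested, and it was called higher at either dose. Primed markers summed to 104.3 to 107.3 FPKM at 0 mM, 127.8 to 137 FPKM at 60 mM and 136.2 to 138.6 FPKM at 80 mM. Of 5 tested, 3 were called higher and 1 lower at either dose. Trophectoderm markers summed to 11.21 to 11.79 FPKM at 0 mM, 15.35 to 16.58 FPKM at 60 mM and 17.12 to 18.92 FPKM at 80 mM. Of 3 tested, 2 were called higher and 1 lower at either dose. The part of these lists in the fall of the chromosome 4 genes was not tested.

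Other genes in the chromosome 4 interval, many of them named only as predicted genes, were examined beside the members. Calls for these and for the other Zfp genes below are as deposited only. In 2CLCs 28 of 38 tested neighbours were called higher and 3 lower, with a median of 1.14. These are 73.7% and 7.89%, against 20.1% and 56.4% of all genes tested. EpiSCs had 0 higher and 31 lower, and MEFs 1 higher and 33 lower. The lower ones are 81.6% in EpiSCs and 86.8% in MEFs, against 26.5% and 40.9% of all genes tested. The higher ones are 0% and 2.63%, against 33.2% and 34.4%. At 60 mM lactate 5 of 45 were called higher and 8 lower, and at 80 mM 7 higher and 16 lower. The 60 mM shares are 11.1% and 17.8%, against 23.5% and 18.6% of all genes tested. Those at 80 mM are 15.6% and 35.6%, against 30% and 23.1%. The 296 other numbered Zfp genes tested gave 36 higher and 223 lower in 2CLCs (median -0.98), 73 higher and 104 lower in EpiSCs, and 57 higher and 179 lower in MEFs. These are 12.2% and 75.3% in 2CLCs, 24.7% and 35.1% in EpiSCs, and 19.3% and 60.5% in MEFs. All genes tested gave 20.1% and 56.4%, 33.2% and 26.5%, and 34.4% and 40.9%, in that order. For lactate 278 were tested, with 40 higher and 37 lower at 60 mM and 54 higher and 48 lower at 80 mM. The shares were 14.4% and 13.3% at 60 mM and 19.4% and 17.3% at 80 mM. Each lies below that of all genes tested, 23.5% and 18.6% at 60 mM and 30% and 23.1% at 80 mM.

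The chromosome 7 cluster, Zfp977, Zfp976, Zfp975 and Zfp936, was near 0 in EpiSCs and did not follow chromosome 4 in lactate. All of the 4 fell in EpiSCs, with means of 0.0477 to 0.158 FPKM, and all fell in MEFs. Of all genes tested 26.5% were called lower in EpiSCs and 40.9% in MEFs. Zfp936 had 0.328, 0.0882 and 0.0484 FPKM in EpiSCs and 19, 20.9 and 19.9 FPKM in ESCs (-4.19 ± 0.10, adjusted p = 5.84e-11), and it was listed at 0 in all 3 MEF libraries, as was Zfp977. Zfp977 had 0.0784, 0 and 0.126 FPKM in EpiSCs and 8.49, 9.77 and 10.1 FPKM in ESCs (-3.29 ± 0.08). Zfp976 had 0.118, 0.137 and 0.218 FPKM in EpiSCs, 1.44, 1.6 and 1.35 FPKM in MEFs and 5.79, 5.18 and 5.46 FPKM in ESCs, and Zfp975 had 0.0327, 0.0725 and 0.038 FPKM in EpiSCs, 0.898, 1.16 and 0.994 FPKM in MEFs and 6.17, 5.87 and 6.15 FPKM in ESCs. For this pair MEFs lie between EpiSCs and ESCs with no overlap.

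In 2CLCs the 4 genes split into pairs, 2 called higher and 2 lower, where 20.1% and 56.4% of all genes tested were. Zfp936 had 29.4, 26.4 and 25.6 FPKM in 2CLCs and 19, 20.9 and 19.9 FPKM in ESCs (0.43 ± 0.10, adjusted p = 0.00189), and Zfp977 also rose (0.35 ± 0.08, adjusted p = 0.00241). Zfp975 had 1.73, 2.63 and 2.56 FPKM in 2CLCs and 6.17, 5.87 and 6.15 FPKM in ESCs (-1.11 ± 0.10, adjusted p = 1.7e-06), and Zfp976 fell as well (-0.83 ± 0.08). The same split held under median-of-ratios scaling. In lactate none was called at 60 mM, and at 80 mM Zfp975 alone was called (-0.21 ± 0.07, adjusted p = 0.0248). Of all genes tested 18.6% were called lower at 60 mM and 23.1% at 80 mM, so 1 of 4 (25%) at 80 mM is near that share. Zfp936 had 37.5, 34.5 and 32.4 FPKM at 0 mM, 37.7, 37.3 and 34.1 FPKM at 60 mM, and 34.3, 34.7 and 33.8 FPKM at 80 mM, which overlap.

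Of the 10 chromosome 17 genes 5 had their highest mean in EpiSCs, 3 in MEFs, 1 in 2CLCs and 1 in ESCs. Of 8 tested, 4 were called higher and 0 lower in EpiSCs, where 33.2% and 26.5% of all genes tested were, and 4 higher and 1 lower in MEFs, where 34.4% and 40.9% were. In EpiSCs the 4 became 2 under median-of-ratios scaling or quantile normalization, and in MEFs quantile normalization gave 3 higher and 3 lower. Zfp946 had 14.4, 9.96 and 9.75 FPKM in EpiSCs, 2.54, 3.04 and 2.94 FPKM in MEFs and 1.57, 1.8 and 1.41 FPKM in ESCs, with log2 fold changes of 2.23 ± 0.14 in EpiSCs (adjusted p = 1.08e-07) and 0.56 ± 0.14 in MEFs (adjusted p = 0.00296). EpiSC replicate 1 is the highest, and both other EpiSC libraries also lie above every other library. Zfp948, which holds no KRAB A-box match, had 9.23, 9.58 and 9.46 FPKM in EpiSCs, 6.06, 6.23 and 6.71 FPKM in MEFs and 3.75, 3.5 and 3.5 FPKM in ESCs (1.19 ± 0.08 and 0.68 ± 0.08). Those 3 states do not overlap. Zfp943 rose in both as well (0.36 in EpiSCs and 0.63 in MEFs), Zfp942 rose in EpiSCs (0.28), and Zfp994 in MEFs (0.39), where it had 1.19, 1.36 and 1.23 FPKM in MEFs and 0.673, 0.735 and 0.773 FPKM in ESCs.

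In 2CLCs Zfp995 had 6.53, 7.7 and 4.49 FPKM, against 2.65, 2.47 and 2.32 FPKM in ESCs (1.03 ± 0.19, adjusted p = 0.000465), and Zfp946, Zfp948 and Zfp943 rose too, by 0.54, 0.51 and 0.46. Zfp944, Zfp945 and Zfp994 fell, by 0.95, 0.83 and 0.58 on the log2 scale, but the fall of Zfp945 was not called under median-of-ratios scaling. Zfp948 showed the largest fall of any member in lactate, with 4.71, 4.46 and 3.86 FPKM at 0 mM, 2.52, 1.78 and 1.92 FPKM at 60 mM, and 1.73, 1.44 and 1.56 FPKM at 80 mM (-0.80 ± 0.11, adjusted p = 0.000276 at 60 mM, and -1.05 ± 0.11, adjusted p = 2.54e-05 at 80 mM). Both lactate groups lie below 0 mM with no overlap. Zfp944 fell at either dose (-0.25 and -0.21) and Zfp942 at 60 mM (-0.24).

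The chromosome 2 genes were low in every state, with a highest mean of 8.28 FPKM for Zfp969 in ESCs. In 2CLCs 1 of 9 tested was called higher and 7 lower, in EpiSCs 0 higher and 2 lower, and in MEFs 0 higher and 8 lower. The lower ones were 77.8%, 22.2% and 88.9% of the 9, where 56.4%, 26.5% and 40.9% of all genes tested were called lower. The higher ones were 11.1%, 0% and 0%, where 20.1%, 33.2% and 34.4% of all genes tested were called higher. Under median-of-ratios scaling none of the 7 falls in 2CLCs was called, and 5 of the 8 in MEFs were. Zfp972, which has no C2H2 finger match, had 1.91, 2.19 and 2.28 FPKM in 2CLCs and 0.879, 1.03 and 0.575 FPKM in ESCs (0.78 ± 0.12, adjusted p = 0.000135), with no overlap. In lactate none of the 10 was called at 60 mM, and Zfp965 alone fell at 80 mM (-0.45 ± 0.13, adjusted p = 0.0143). Of all genes tested 18.6% were called lower at 60 mM and 23.1% at 80 mM. At 80 mM 3 were called lower under median-of-ratios scaling and 6 under quantile normalization, which also gave 2 at 60 mM, and the replicate block gave 1 at 60 mM. Those alternatives called 3913, 3453, 2605 and 2386 of all 13271 genes tested lower, in that order. Of the chromosome 8 genes, Zfp930 had 2.92, 3.48 and 3.39 FPKM in 2CLCs, 10.7, 10.9 and 9.89 FPKM in EpiSCs, 2.71, 2.97 and 3.19 FPKM in MEFs and 13.4, 14.4 and 14.8 FPKM in ESCs, and fell in all 3 (-1.83, -0.40 and -1.94). Its 2CLC and MEF libraries overlap, and those of EpiSCs and ESCs stand apart. It was not called in lactate.

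Outside the clusters 2 genes with described targets were prominent. Zfp961, reported to bind the lysine tRNA primer site of retroviral elements, had 19, 15.4 and 23.6 FPKM in 2CLCs, 14.3, 10 and 10 FPKM in EpiSCs, 3.81, 3.05 and 4.13 FPKM in MEFs and 50.5, 49.5 and 49.7 FPKM in ESCs (-1.34 ± 0.16, -2.05 ± 0.16 and -3.45 ± 0.16). No library of the 4 states reaches into its neighbour in that order. In lactate Zfp961 was the highest member, with 90.9, 77.7 and 73.3 FPKM at 0 mM, 70.1, 70.5 and 65.7 FPKM at 60 mM, and 52.9, 53 and 56.3 FPKM at 80 mM (-0.22 ± 0.07, adjusted p = 0.0272 at 60 mM, and -0.56 ± 0.07, adjusted p = 8.31e-05 at 80 mM). The 3 doses do not overlap. Zfp932, which together with its paralog Gm15446 represses endogenous retroviruses in mouse ESCs, had 1.84, 2.13 and 2.87 FPKM in 2CLCs, 9.73, 6.6 and 7.44 FPKM in EpiSCs, 4.65, 4.49 and 4.59 FPKM in MEFs and 10.6, 10.5 and 10 FPKM in ESCs (-1.81 ± 0.13, -0.37 ± 0.13 and -1.03 ± 0.13). Zfp932 shares 52.3% of its words with Gm15446, which was called lower in 2CLCs and MEFs and not in EpiSCs.

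**Figure D5:**
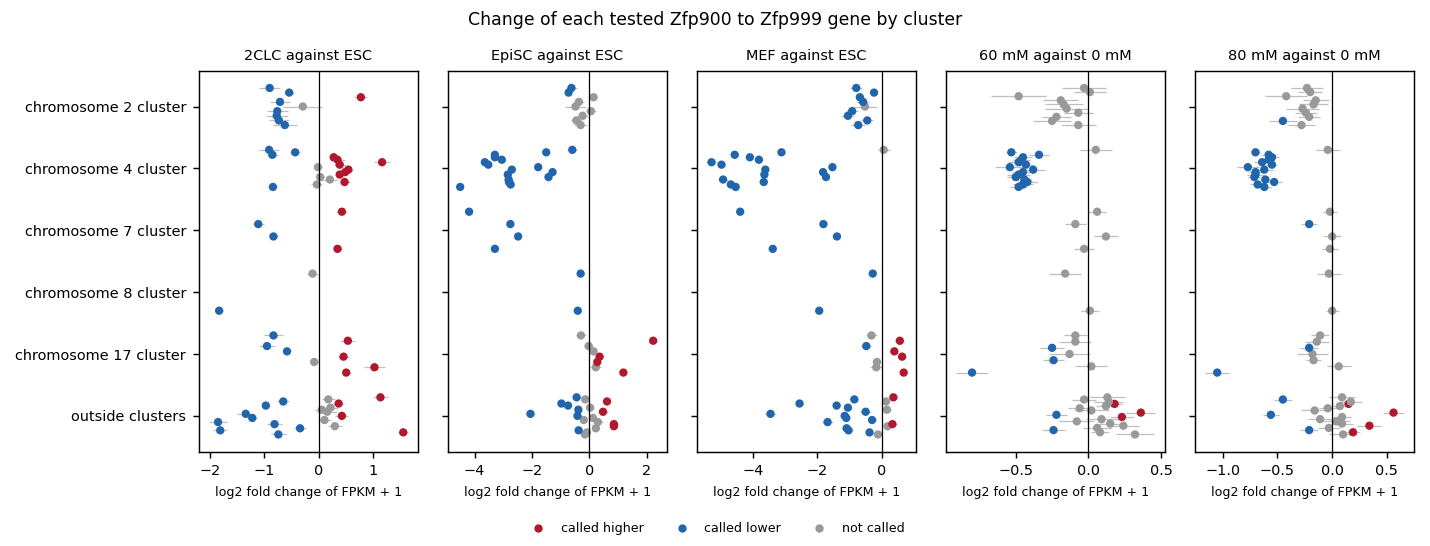
Log2 fold change of each tested member on the FPKM + 1 scale (horizontal, error bars 1 SE), by cluster (vertical), for 2CLCs, EpiSCs and MEFs against ESCs and for 60 and 80 mM against 0 mM lactate; horizontal ranges differ between panels, and red, blue and grey mark genes called higher, called lower and not called. The chromosome 4 genes lie left of 0 in EpiSCs, MEFs and both doses, except that Zfp933 lies near 0 in MEFs and lactate, and on both sides of 0 in 2CLCs.

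Of the 10 members that differed in 2CLCs by more than 1 on the log2 scale, Zfp978, Zfp995, Zfp930 and Zfp975 lie in clusters, and Zfp951, Zfp950, Zfp940, Zfp941, Zfp932 and Zfp961 outside them. Zfp951 had 4.76, 4.69 and 4.98 FPKM in 2CLCs and 0.902, 0.97 and 1.02 FPKM in ESCs (1.56 ± 0.09, adjusted p = 1.6e-08). Zfp950 had 6.94, 6.87 and 8.13 FPKM in 2CLCs and 2.63, 2.74 and 2.9 FPKM in ESCs (1.14 ± 0.14, adjusted p = 1.35e-05). Zfp940 had 0.451, 1.1 and 1.35 FPKM in 2CLCs and 6.13, 6.14 and 5.59 FPKM in ESCs (-1.85 ± 0.17, adjusted p = 1.68e-06). These genes share at most 1.16% of their words with others, no library of either group reached into the other, and the calls were also made under median-of-ratios scaling. Zfp941 fell by 1.22 on the log2 scale, with 0.783, 0.99 and 0.972 FPKM in 2CLCs and 3.08, 3.81 and 3.54 FPKM in ESCs.

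In EpiSCs Zfp954 rose to 5.65, 6.17 and 8.54 FPKM, against 2.82, 3.37 and 3.53 FPKM in ESCs (0.86 ± 0.13, adjusted p = 0.00016). Zfp974 had 2.03, 3.17 and 3.2 FPKM in EpiSCs, 1.76, 1.65 and 1.42 FPKM in MEFs and 1.05, 1.27 and 0.918 FPKM in ESCs (0.86 ± 0.13 and 0.33 ± 0.13). Zfp952 had 3.47, 4.56 and 4.3 FPKM in EpiSCs and 2.54, 2.29 and 2.13 FPKM in ESCs (0.62 ± 0.11, adjusted p = 0.000661). The groups lie apart for each of these genes. Zfp949 had 3.25, 5.54 and 5.34 FPKM in EpiSCs and 2.66, 3.39 and 3.01 FPKM in ESCs, which overlap, and its rise (0.48 ± 0.18, adjusted p = 0.0336) was lost under 7 alternatives. Zfp950 had 3.69, 3.42 and 4.43 FPKM in MEFs and 2.63, 2.74 and 2.9 FPKM in ESCs (0.36 ± 0.14, adjusted p = 0.0321), a call also lost in most fits that left out a library.

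Few members rose in lactate. Zfp949 had 4.08, 3.24 and 4.17 FPKM at 0 mM, 6.04, 4.66 and 4.88 FPKM at 60 mM, and 5.96, 6.54 and 5.83 FPKM at 80 mM (0.36 ± 0.10, adjusted p = 0.0199 at 60 mM, and 0.56 ± 0.10, adjusted p = 0.00123 at 80 mM). Both lactate groups lie above 0 mM. Zfp960, which shares 83.3% of its words with Zfp97, had 17.8, 18.3 and 17.4 FPKM at 0 mM, 21.4, 19.6 and 20.1 FPKM at 60 mM, and 19.7, 19.6 and 20.6 FPKM at 80 mM (0.18 ± 0.05 and 0.15 ± 0.05). Zfp958 rose at 60 mM (0.23), and Zfp954 (0.34) and Zfp951 (0.19) rose at 80 mM. At 80 mM the 4 rises became 2 without 0 mM replicate 3 or without 80 mM replicate 1, and 2 under median-of-ratios scaling. Zfp959 fell at 80 mM to 3.17, 3.36 and 2.96 FPKM, against 4.42, 5.05 and 4.62 FPKM at 0 mM (-0.45 ± 0.08, adjusted p = 0.00123), with 4.87, 4.89 and 4.05 FPKM at 60 mM.

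The proteins through which KRAB zinc finger proteins act were examined from a list of 28 names, 25 of them tested. Calls for this list are given as deposited only. In 2CLCs 1 was called higher and 19 lower (4% and 76%, against 20.1% and 56.4% of all genes tested), in EpiSCs 6 higher and 14 lower (24% and 56%, against 33.2% and 26.5%), and in MEFs 1 higher and 21 lower (4% and 84%, against 34.4% and 40.9%). Trim28, the co-repressor that binds the KRAB box, averaged 655 ± 27 FPKM in 2CLCs, 290 ± 16 in EpiSCs, 87 ± 3.22 in MEFs and 627 ± 9.56 in ESCs (SD, n = 3), and fell in EpiSCs (-1.11) and MEFs (-2.84). Setdb1, the histone methyltransferase, averaged 30.8 ± 0.924 FPKM in 2CLCs, 26.3 ± 4.77 in EpiSCs, 10.5 ± 0.559 in MEFs and 35.8 ± 0.936 in ESCs, and was called lower in EpiSCs and MEFs. The gene higher in 2CLCs was Atf7ip2 (1.13 ± 0.11), a relative of the Setdb1 partner Atf7ip, and that higher in MEFs was Chd3 (3.07 ± 0.13), a chromatin remodeller.

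In lactate the list moved both ways, with 6 higher and 6 lower at 60 mM (24% each, near the 23.5% and 18.6% of all genes tested) and 4 higher and 8 lower at 80 mM (16% and 32%, against 30% and 23.1%). Trim28 rose, with 612, 616 and 627 FPKM at 0 mM, 714, 713 and 694 FPKM at 60 mM, and 758, 752 and 753 FPKM at 80 mM (0.19 ± 0.02 and 0.29 ± 0.02), and the doses do not overlap. Chd3, Hdac1 and Trim24 were the others called higher at 80 mM. The maintenance methylation genes fell at either dose, Uhrf1 by 0.40 and 0.69 and Dnmt1 by 0.20 and 0.32 on the log2 scale. Setdb1 averaged 38.6 ± 1.2 FPKM at 0 mM, 36.5 ± 0.778 at 60 mM and 38.2 ± 0.407 at 80 mM and was not called.

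KRAB zinc finger genes with described targets outside the members gave 2 higher and 10 lower of 14 tested in 2CLCs as deposited (14.3% and 71.4%, against 20.1% and 56.4% of all genes tested). Zfp809, which silences retroviruses through their proline primer site, rose to 181 ± 4.05 FPKM in 2CLCs, against 16 ± 0.835 FPKM in ESCs (3.43 ± 0.12, adjusted p = 4.44e-10). Zfp57, which keeps methylation at imprinted genes, fell to 95.8 ± 8.59 FPKM in 2CLCs, 26.6 ± 1.73 in EpiSCs and 25.9 ± 1.44 in MEFs, against 281 ± 5.08 FPKM in ESCs. In lactate 3 of 13 were called higher and 3 lower at 60 mM (23.1% each, near the 23.5% and 18.6% of all genes tested), and 4 higher and 3 lower at 80 mM (30.8% and 23.1%, against 30% and 23.1%). The falls were those of Zfp819, Zfp459 and Zfp600, at 0.61, 0.46 and 0.41 at 60 mM and 0.95, 0.84 and 0.66 at 80 mM on the log2 scale. Of these, Zfp600 lies in the chromosome 4 interval.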

How the data were processed

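RNA was extracted with Trizol, made into TruSeq libraries and sequenced, per the labels. The authors deposited FPKM per gene in 2 tables, 1 of 12 cell-state libraries and 1 of 9 lactate libraries, made with HISAT2 2.0.4, StringTie 2.1.4 and mm10, per the submitters' processing notes. The tables were normalized separately and no level was set across them. Read depth is unknown, so no counting interval is given, and the 3 libraries of a group limit the precision.

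From these values log2(FPKM + 1) was tested with limma 3.58.1 in R 4.3.3 over every gene that reached 1 FPKM in 3 or more libraries, with a mean trend, all groups of a table sharing 1 estimate of spread, and Benjamini-Hochberg adjustment. The 62 members and the gene lists were chosen with earlier results of these data known. Per-library values were given for the up to 6 largest rises and falls per comparison, the 5 highest members of each state and of 0 mM, and members listed at 0 in a group; other values shown were chosen after they were seen. Pairing by replicate number was checked: correlations of deviations lay between -0.03 and 0.072, none over 0.1, so numbers were not treated as pairs. On simulated data a log2 change of 0.5 was recovered in 38 to 51% of changed genes in the cell-state comparisons and 72 to 75% in those of lactate, and a change of 1 in 86 to 98% in the 6 comparisons, with 2.84 to 7.41% of calls false. The simulations changed 100 genes by 0.5, 50 by 1 and 50 by 2, among 16358 or 13271. Far more genes were called in the data, on which the adjustment depends, so these rates may not hold for them. Shared sequence was counted in words of 50 bases of GENCODE M21 transcripts. Counts within the chromosome 4 cluster and the fit without EpiSC replicate 1 in the shared spread were added after the data were seen. Alternatives were other pseudocounts, filters, scalings, a minimum change, a replicate block and leaving out each library.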

Additional observations from a re-analysis of the deposited data

How the results depend on the processing

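No named result reversed: of 880 values of 58 named results under the alternatives, 819 kept direction and call and 61 lost the call, and 46 results kept theirs under all that were run. Results that lost it under at least 1 alternative were Zfp949 in EpiSCs, Zfp946, Zfp950 and Zfp974 in MEFs, Zfp949 and Zfp958 at 60 mM, Zfp954, Zfp951 and Zfp960 at 80 mM, and Zfp959, Zfp961 and Zfp984 between the doses. Outside these 58, the calls of Zfp984 and Zfp956 changed from lower to higher in 2CLCs under median-of-ratios scaling (0.31 and 0.26). The cause of these changes was not tested.

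Counts of calls moved as follows. Median-of-ratios scaling gave 33 higher and 13 lower in 2CLCs (13 and 1 on chromosome 4), 5 higher in EpiSCs, 2 higher at 80 mM, and 6 lower at 80 against 60 mM (4 on chromosome 4). In 2CLCs that scaling called 6018 of all 16358 genes tested higher and 5301 lower. Quantile normalization gave 5 higher in EpiSCs, 3 higher in MEFs, 2 higher at 80 mM, and 6 lower between the doses (4 on chromosome 4). A filter of 5 FPKM gave 10 lower in 2CLCs, 4 higher in EpiSCs, 3 higher and 28 lower in MEFs, and 2 lower on chromosome 4 between the doses. With no filter there were 1 higher at 60 mM and 1 lower between the doses. A pseudocount of 0.1 gave 5 higher on chromosome 4 in 2CLCs. With a log2 change of at least 1 required there were 4 higher and 6 lower in 2CLCs (1 and 0 on chromosome 4), 2 higher and 20 lower in EpiSCs, 0 higher in MEFs, 0 higher and 0 lower at 60 mM (0 lower on chromosome 4), 0 higher and 1 lower at 80 mM (0 lower on chromosome 4), and 0 lower between the doses (0 on chromosome 4).

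Leaving out 1 library at a time gave 18 to 19 higher and 24 to 26 lower in 2CLCs (7 to 8 and 4 on chromosome 4), 6 to 11 and 25 to 35 in EpiSCs (15 to 16 lower on chromosome 4), 4 to 5 and 38 to 41 in MEFs (15 lower), 2 to 3 and 17 to 19 at 60 mM (15 lower), 2 to 4 and 18 to 22 at 80 mM (15 lower), and 0 higher and 0 to 2 lower between the doses (0 on chromosome 4). The replicate block gave 19 higher and 26 lower in 2CLCs, 8 and 30 in EpiSCs, 6 and 43 in MEFs, 3 and 21 at 60 mM, 4 and 22 at 80 mM, and 0 and 3 between the doses, and changed no named call. Depth is unknown, and levels of near-identical copies rest on how reads were divided.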
